A study of Sus scrofa with 15 samples.

Results

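Class II molecules of the major histocompatibility complex show peptides from outside the cell to CD4 T cells. The 10 genes followed here are the class II chains SLA-DRA, SLA-DRB1, SLA-DQA1 and SLA-DQB1, the invariant chain CD74, the peptide editor chains SLA-DMA and SLA-DMB, the transactivator CIITA, and the costimulatory ligands CD80 and CD86. They were chosen by symbol and not by any measured value. Of the 10 symbols, 8 could be matched to a row among the 30477 Ensembl genes of the count files, and all 8 passed the filter on low counts. SLA-DRB1 and SLA-DQA1 had no Ensembl identifier in the reference tables and their expression was not analysed here. In these 8 genes the edgeR fit to all libraries gave no DEG between any pair of diets, while DESeq2 called CD86 lower in both groups fed olive by-products. CTSS, a protease that prepares class II for antigen, was lower in both of these groups by edgeR. For CD86 and CTSS alike, C 3 and C 5, the 2 controls with the highest macrophage markers, were by far the highest. The CTSS call in DOP was lost with limma-voom and held in 4 of 10 fits with a single library left out. Of 11 genes listed for that route, CTSS included, 4 were called lower in WCOC by edgeR, beside 3.93% of all tested genes. The 3 other than CTSS had differences of similar size in DOP without being called there. In WCOC their calls were lost without C 3 and C 5.

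RNA of backfat, the subcutaneous fat of the back, was sequenced from 15 Iberian pigs, 5 per diet. The C group received a control compound feed, the DOP group a compound feed made with dry olive pulp, and the WCOC group a compound feed together with a silage of wet crude olive cake offered without limit. The diets were fed throughout the growing period until the pigs were about a year old, when biopsies of the dorsal lumbar fat were taken. All pigs shared breed and farm. The compound feeds of DOP and WCOC were restricted more than that of C, each diet was fed in 1 pen, and feed intake was not recorded per pig, so diet, feeding level and pen cannot be told apart. The 5 libraries of a diet come from 5 pigs chosen among more by the amount and quality of their RNA.

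Depth ran from 22373715 to 34745218 counts on genes per library. Adipocyte markers were abundant in all libraries (8 genes with ADIPOQ the highest, summed level 14870 to 22850 CPM, the read count scaled to library size by TMM). Some libraries stood apart. The summed level of 6 skeletal muscle markers, ACTA1 the highest, reached 9624, 5446 and 42530 CPM in DOP 2, DOP 4 and DOP 5, against 17.6 to 3308 CPM in the other 12 libraries. The summed level of 12 macrophage markers was 690 CPM in C 3 and 886 CPM in C 5, against 149 to 505 CPM in the rest. All DOP libraries and C 5 were sequenced on 1 flow cell, and the other C libraries and all WCOC libraries on another, according to the run identifiers. The part of these differences in the results below was not tested, and values without the libraries are given where they matter.

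A class II molecule is a pair of an alpha and a beta chain. It is built in the endoplasmic reticulum around CD74, which blocks the peptide groove and carries the complex to the endosome. Cathepsins, above all CTSS, cut CD74 down to a short stub, and the DM pair then exchanges that stub for an antigen peptide. CIITA does not bind DNA itself. It docks onto proteins bound to the X and Y boxes of class II promoters and switches on the class II chains, CD74 and DM together. CD80 and CD86 bind CD28 on the T cell and give the second signal without which a class II complex does not activate it. In fat, macrophages, dendritic cells and B cells carry class II, and adipocytes and endothelial cells can carry it too. In whole tissue, fewer cells of a type and less RNA per cell cannot be told apart.

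Because these genes are known for a shared promoter module, the reference promoters (RefSeq, Sscrofa11.1) were searched from 250 bases before to 50 bases after the annotated start, on both strands. The printed stretches show that module. Each is 70 bases long and reads 5′ to 3′ on the strand of its gene. Capitals mark the core of the X box (ACNNATG) where it stands 15 to 30 bases before a Y box, and the Y box (ATTGG, or its reverse complement in CD74). A second match of the core in SLA-DRB1, next to its Y box, is left in lower case.
SLA-DRA (chr7:24824937-24825006, strand +): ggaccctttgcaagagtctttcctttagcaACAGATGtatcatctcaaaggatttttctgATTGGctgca
SLA-DRB1 (chr7:24914072-24914141, strand -): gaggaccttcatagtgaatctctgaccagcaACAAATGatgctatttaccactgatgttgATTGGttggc
SLA-DQA1 (chr7:24953355-24953424, strand +): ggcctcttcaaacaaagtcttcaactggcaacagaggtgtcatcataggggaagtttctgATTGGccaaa
SLA-DQB1 (chr7:24977317-24977386, strand -): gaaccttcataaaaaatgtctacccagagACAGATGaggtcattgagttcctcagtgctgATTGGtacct
SLA-DMA (chr7:25137983-25138052, strand -): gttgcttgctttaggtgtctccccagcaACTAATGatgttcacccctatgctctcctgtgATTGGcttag
SLA-DMB (chr7:25125130-25125199, strand -): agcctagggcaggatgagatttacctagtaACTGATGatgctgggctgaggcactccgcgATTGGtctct
CD74 (chr2:151409962-151410031, strand -): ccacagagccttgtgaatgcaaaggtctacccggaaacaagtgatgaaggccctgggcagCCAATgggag
The core stood 22 to 25 bases before the Y box in 5 of the 10 promoters (SLA-DRA, SLA-DRB1, SLA-DQB1, SLA-DMA and SLA-DMB). A core followed by a Y box at 15 to 30 bases on the same strand was found in 94 of 19556 promoters, or 0.481%. The core pattern was written after these sequences had been seen. The longer X box, CCNAGNN followed directly by the core, matched 0.164% of promoters, among them those of SLA-DMA, SLA-DMB and SLA-DQB1. The Y box alone matched 35.4% of all promoters and 8 of these 10, all but CD80 and CD86. The gamma-activated site TTCNNNGAA, a response element of interferon gamma, matched 7.12% of promoters and of these 10 that of SLA-DQB1. The core and Y box in this order were not found in the windows of SLA-DQA1, CD74, CIITA, CD80 and CD86, which says only that these letters are not there.

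The genes lie in 4 places of Sscrofa11.1. SLA-DRA (chromosome 7, 24825037 to 24830650), SLA-DQB1 (24969034 to 24977238), SLA-DMB (25119278 to 25125089) and SLA-DMA (25133494 to 25137928) share the class II region of chromosome 7. CD74 lies on chromosome 2 (151402210 to 151409924) and CIITA on chromosome 3 (32171706 to 32230775). CD86 (138427573 to 138504307) and CD80 (140693312 to 140730541) are both on chromosome 13. Class II chains are highly polymorphic, and reads were aligned to 1 reference haplotype. SLA-DMA and SLA-DMB overlap BRD2, CIITA overlaps DEXI and CD80 overlaps TIMMDC1, each on the opposite strand, and the strand setting of the counting, unlike that of the alignment, is not given in the sources used here, so a share of these counts may come from the partner.

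The levels of the genes spanned nearly 3 orders of magnitude per length of exon. Over the 15 libraries CD74 stood highest at 520 ± 100 CPM per kb (SD, n = 15), above 99.4% of tested genes in CPM. SLA-DRA followed with 146 ± 25.8 CPM per kb and SLA-DQB1 with 73.1 ± 22.97 CPM per kb. The DM chains were next, SLA-DMA at 22.99 ± 2.98 and SLA-DMB at 19.4 ± 4.39 CPM per kb, a difference within the SD of SLA-DMB but not that of SLA-DMA. CIITA was at 3.51 ± 0.660 CPM per kb, CD86 at 1.44 ± 1.14 and CD80 at 0.552 ± 0.217, the last of these the scarcest. With the length of the curated transcript instead of all exons the order was the same, but CD74 was then at 1493 ± 288 CPM per kb against 183 ± 32.3 for SLA-DRA, CIITA at 17.1 ± 3.21 CPM per kb, within the SD of SLA-DMB, CD86 at 7.73 ± 6.15 and CD80 at 1.29 ± 0.505.

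SLA-DRA (ENSSSCG00000001453) encodes the nearly invariant alpha chain of the DR molecule. Its level in C was 338, 179, 183, 220 and 279 CPM in replicates 1 to 5. In DOP it was 232, 219, 191, 232 and 194 CPM, and in WCOC 210, 243, 218, 238 and 247 CPM. Both olive groups lay inside the range of C, whose pigs spread the most, with a coefficient of variation of 28.3% against 9.42% in DOP and 6.92% in WCOC. The log2FC was -0.17 ± 0.15 (SE) for DOP vs. C (edgeR, adjusted p = 0.619) and -0.05 ± 0.15 for WCOC vs. C (edgeR, adjusted p = 0.860). The 95% intervals were -0.49 to 0.16 and -0.38 to 0.27.

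SLA-DQB1 (ENSSSCG00000001457), the polymorphic beta chain of the DQ molecule, varied more within every diet. It measured 102, 46.6, 66.8, 121 and 92.0 CPM in C, 69.4, 105, 63.2, 75.6 and 60.4 CPM in DOP, and 108, 136, 63.2, 126 and 74.6 CPM in WCOC. The 3 diets overlapped over most of their ranges. Its mean was highest in WCOC (101 ± 31.6 CPM) and lowest in DOP (74.7 ± 17.98 CPM). That difference, a log2FC of 0.44 with a 95% interval of -0.11 to 0.99, was the largest among SLA-DRA, SLA-DQB1, CD74, SLA-DMA and SLA-DMB and did not pass the test (edgeR, adjusted p = 0.287).

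CD74 (ENSSSCG00000033262), the invariant chain, was read at 1378, 674, 910, 971 and 916 CPM in C. The DOP pigs gave 858, 846, 787, 1088 and 839 CPM, and the WCOC pigs 943, 1321, 918, 962 and 1036 CPM. C 1 was the highest and C 2 the lowest of all 15 libraries, so that C enclosed both olive groups. The log2FC was -0.13 ± 0.17 for DOP vs. C and 0.10 ± 0.17 for WCOC vs. C, and the sign of each depended on single pigs. Without C 1 the value for DOP was 0.02, and for WCOC it was -0.01 without C 2 and -0.02 without WCOC 2. The 95% intervals of CD74 (-0.49 to 0.22 in DOP and -0.26 to 0.45 in WCOC) did not reach a log2FC of 0.58 in size.

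SLA-DMA and SLA-DMB encode the 2 chains of the peptide editor. SLA-DMA (ENSSSCG00000001470) was the steadiest gene of the set over all 15 libraries, with 30.5, 20.1, 21.9, 22.8 and 30.6 CPM in C, 24.3, 22.8, 22.6, 23.9 and 21.6 CPM in DOP and 23.3, 28.7, 23.2, 24.8 and 25.5 CPM in WCOC. By coefficient of variation CIITA was as steady within C (19.7% against 19.9%), and SLA-DRA steadier within WCOC (6.92% against 8.87%). The mean of SLA-DMA in WCOC (25.1 ± 2.23 CPM) and in C (25.2 ± 5.01 CPM) differed by a log2FC of -0.00, with a 95% interval of -0.25 to 0.24. SLA-DMB (ENSSSCG00000001469) measured 38.1, 21.6, 26.9, 24.6 and 41.7 CPM in C, 26.9, 25.9, 22.9, 24 and 21.02 CPM in DOP and 23.1, 31.2, 22.2, 22.8 and 29.7 CPM in WCOC. C 1 and C 5 were high for both chains, and the other 3 control pigs lay among the olive groups or, as C 2 in SLA-DMA, just below them. SLA-DMB was lower in DOP by a log2FC of -0.34 ± 0.17 (edgeR, adjusted p = 0.314) and in WCOC by -0.24 ± 0.17 (edgeR, adjusted p = 0.379).

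CIITA (ENSSSCG00000007901), the transactivator, had a higher mean in both olive groups than in C. It was 44.0, 37.3, 28.2, 28.8 and 40.5 CPM in C, 49.5, 45.8, 40.3, 51.8 and 45.9 CPM in DOP, and 47.0, 34.0, 51.0, 40.7 and 54.3 CPM in WCOC. In DOP 4 of 5 pigs lay above the highest control and in WCOC 3 of 5. The log2FC was 0.38 (95% interval 0.08 to 0.69) for DOP vs. C and 0.35 (0.04 to 0.65) for WCOC vs. C. Neither passed the adjustment over all genes or the limit on size (edgeR, adjusted p = 0.185 in DOP and 0.141 in WCOC). With flow cell as a covariate the value for DOP was 0.21 (edgeR, adjusted p = 0.793), and for WCOC it was 0.39 (edgeR, adjusted p = 0.134). CIITA went with the summed level of 6 endothelial markers (r = 0.588 with the mean of each diet removed, rho = 0.532, and r = 0.632 without the 2 farthest libraries, n = 15), a list whose median log2FC was 0.32 in DOP and 0.37 in WCOC. The part of those markers in the difference of CIITA was not tested.

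CD80 (ENSSSCG00000011899) and CD86 (ENSSSCG00000011877) bind the same receptors on T cells. CD80 was scarce, with 48 to 178 counts per library, and measured 3.68, 2.05, 3.82, 2.53 and 5.90 CPM in C, 4.78, 6.04, 3.21, 2.82 and 1.71 CPM in DOP and 2.13, 2.70, 2.58, 3.34 and 4.90 CPM in WCOC. The diets overlapped nearly in full, and the log2FC of 0.04 in DOP and -0.20 in WCOC had 95% intervals of -0.70 to 0.78 and -0.94 to 0.54, which do not exclude changes past the limit of 0.58.

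CD86 had the largest differences between diets of all 8 genes. Its level in C was 6.57, 6.28, 16.6, 7.60 and 26.5 CPM, against 6.67, 7.55, 4.35, 4.51 and 2.86 CPM in DOP and 5.01, 6.18, 3.53, 3.97 and 7.14 CPM in WCOC. C 3 and C 5 stood far above the other 13 pigs, and the remaining 3 controls lay at the upper end of the olive groups. The mean was 12.7 ± 8.81 CPM in C, 5.19 ± 1.89 CPM in DOP and 5.16 ± 1.51 CPM in WCOC. The log2FC was -1.30 ± 0.40 in both comparisons with C, or 2.46-fold lower in each. Neither was a DEG (edgeR, adjusted p = 0.131 for DOP and 0.0508 for WCOC). Without C 5 alone the log2FC was -0.84 in each comparison (edgeR, adjusted p = 0.271 and 0.142), and without C 3 and C 5 it was -0.40 (edgeR, adjusted p = 0.646 and 0.5005). DESeq2 called CD86 lower in both diets (adjusted p = 0.0246 and 0.00904), and edgeR with flow cell as a covariate gave -2.35 in DOP (adjusted p = 0.0277) and -0.84 in WCOC (adjusted p = 0.140). Within the flow cell that held 4 C and all WCOC libraries the log2FC was -0.85 (edgeR, adjusted p = 0.141). The other flow cell held 1 C library and allows no such value for DOP. Between WCOC and DOP the log2FC of CD86 was -0.00, with a 95% interval of -0.85 to 0.84.

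**Figure D1:**
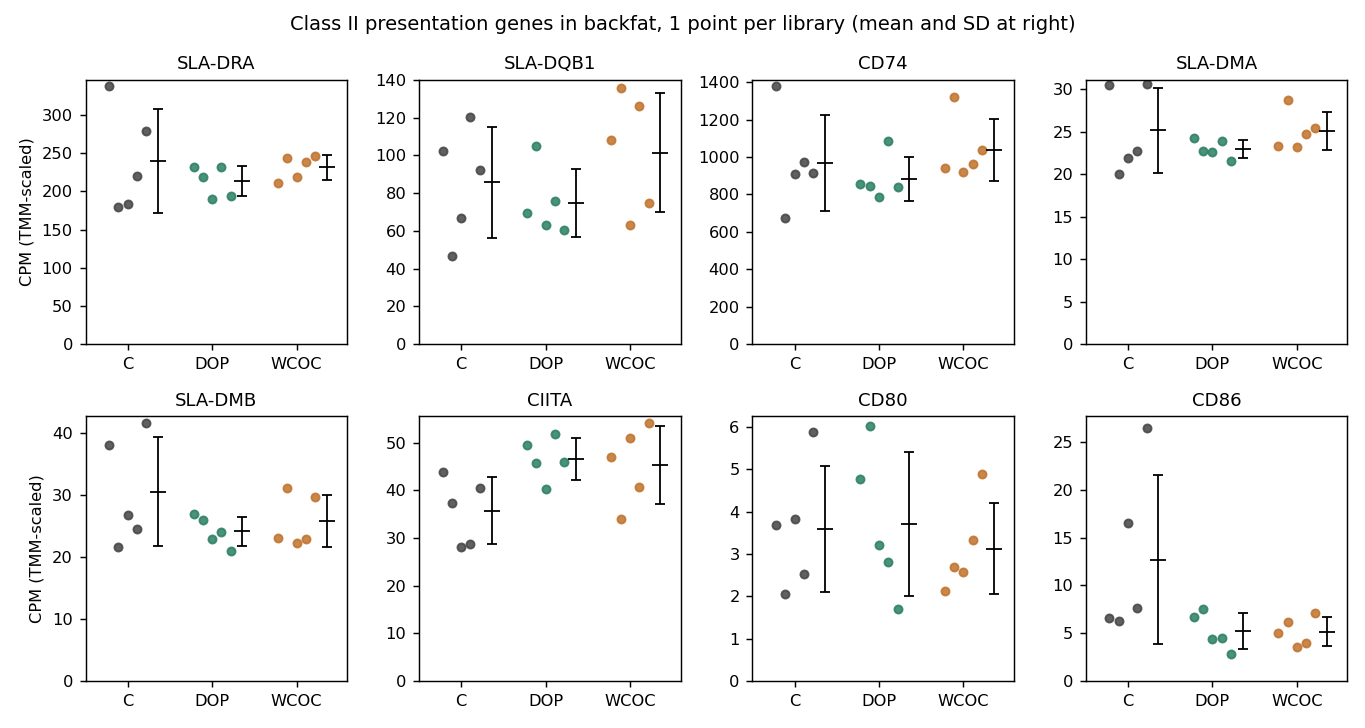
Level of each gene (vertical axis, CPM from 0) in each of the 15 libraries, by diet, with points ordered by replicate number and the mean and SD of the 5 libraries at the right. The high controls of CD86 are C 3 at 16.6 CPM and C 5 at 26.5 CPM, and for all 8 genes the values of the diets overlap.

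The comparison DOP vs. C asks whether backfat of pigs fed dry olive pulp differed from that of control pigs. A gene counted as a DEG where edgeR gave an adjusted p under 0.05 together with a log2FC past 0.58 in either direction. None (0) of the 8 genes was a DEG, beside 0.764% of the 14918 tested genes, 0.55% lower and 0.215% higher. At an unadjusted p under 0.05 there were 2 of 8, CIITA and CD86, against 17.6% of all genes. DESeq2 called 1, CD86, and limma-voom 0. The median log2FC of the 8 genes was -0.15, with 6 of 8 below 0, and that of all tested genes 0.01, with 47.8% below 0. All 5 of the chain, CD74 and DM genes had a mean lower in DOP than in C, with log2FC from -0.34 to -0.13. None of the 8 genes had values that did not overlap between DOP and C, which 3.47% of all genes had.

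For WCOC vs. C, the same question for wet olive cake, edgeR again gave 0 DEGs among the 8 genes, beside 6.25% of all tested genes (3.93% lower and 2.33% higher). At an unadjusted p under 0.05 there were again CIITA and CD86, against 26.4% of all genes, and DESeq2 called CD86 while limma-voom called none of the 8. The median log2FC was -0.03, with 5 of 8 below 0 against 49.4% of all genes, and none of the 8 had values without overlap, which 7.62% of all genes had. The 5 chain, CD74 and DM genes fell on both sides of 0, from -0.24 (SLA-DMB) to 0.25 (SLA-DQB1). CD86 was just short of the threshold, and it passed with at least 10 counts required in every library (edgeR, adjusted p = 0.0460) or with C 1, C 2 or C 4 left out. In WCOC vs. DOP, edgeR, DESeq2 and limma-voom all called 0 of the 8 genes (7.76% of all genes by edgeR, 5.11% lower and 2.65% higher), and 0 had an unadjusted p under 0.05, against 28.1% of all genes. Here 3 of 8 were below 0 against 49.9% of all genes, and again none lacked overlap, against 8.9%. The 5 chain, CD74 and DM genes all had a higher mean in WCOC than in DOP, with log2FC of 0.10 to 0.44. The 2 comparisons with C share the control pigs.

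**Figure D2:**
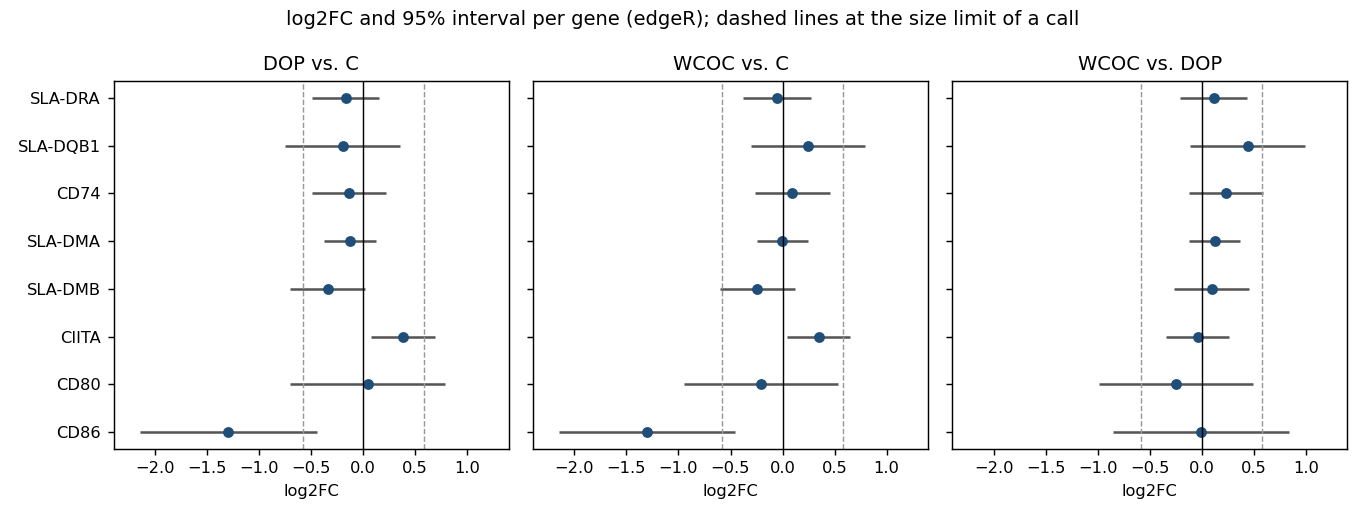
log2FC (points) with 95% intervals (bars) of the 8 genes in the 3 comparisons, from the edgeR fit to all libraries, with dashed lines at 0.58 in either direction. The intervals of CIITA (above 0) and CD86 (below 0) exclude 0 in both comparisons with C, and those of the 5 chain, CD74 and DM genes include it in every comparison.

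With the mean of each diet removed, Pearson's r of log2 CPM over the 15 libraries was 0.431 to 0.939 among the 10 pairs of these 5 genes, with a median of 0.687 (Spearman's rho 0.304 to 0.907). Without the 2 libraries farthest from the median of the first gene of a pair, mostly C 1 and C 2, these r were 0.117 to 0.895 with a median of 0.373, so that much of the relation rests on few pigs. The closest pair was SLA-DMA and SLA-DMB, the chains of 1 molecule, which also share the neighbour BRD2. The r of CIITA with the 5 genes ran from -0.311 for SLA-DQB1 to 0.494 for SLA-DRA, with a median of 0.282, and without the 2 farthest libraries, C 3 and WCOC 2, from -0.322 to 0.551 with a median of 0.468. Its own range between the lowest and highest pig was less than 2-fold. CD86 went with CD80 (r = 0.789, rho = 0.771, and r = 0.740 without the 2 farthest libraries). With the 5 genes the r of CD86 ran from 0.05 (CD74) to 0.628 (SLA-DMB, rho = 0.607, and r = 0.772 without the 2 farthest libraries). All values of a library share its RNA, its depth and its scaling, so these are descriptions of 15 libraries.

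**Figure D3:**
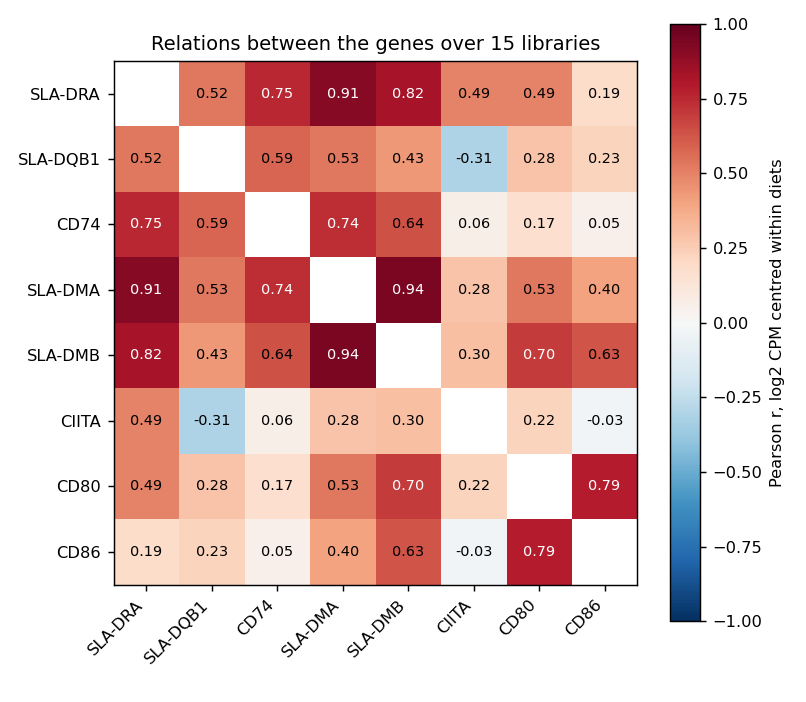
Pearson's r between each pair of the 8 genes over 15 libraries, from log2 CPM with the mean of each diet removed (colour scale from -1 to 1). The chain, CD74 and DM genes form a block with r from 0.43 to 0.94, CD80 and CD86 pair at 0.79, and CIITA stays between -0.31 and 0.49.

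The genes in no list whose level followed the mean of the 8 standardized genes most closely were TLR1 (r = 0.869, n = 15), CIDEB (0.810), SH3BP1 (0.807), GZMA (0.795) and CCDC88B (0.791). TLR1 encodes a receptor for bacterial lipopeptides on myeloid cells and had 3.38 to 7.01 CPM. CIDEB and GZMA were near the limit of detection, at means of 0.385 and 0.254 CPM. None of the 5 was a DEG in any comparison.

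The enzymes that prepare antigen and cut CD74 in the endosome held several DEGs. Of 11 genes in this list (cathepsins, LGMN, IFI30, the class II ubiquitin ligase MARCHF1 and the tetraspanins CD63 and CD82), 1 was lower in DOP than in C and 0 were higher, and 4 were lower in WCOC and 0 higher. The shares of all tested genes called lower were 0.55% in DOP and 3.93% in WCOC. The median log2FC of the list was -0.56 in DOP and -0.52 in WCOC. Without C 3 and C 5 it was -0.30 and -0.22, with 0 and 1 called, and within the flow cell of the WCOC libraries 0 were called. Between WCOC and DOP 0 genes of the list were DEGs by edgeR and limma-voom, with 2 at an unadjusted p under 0.05, and DESeq2 called 1, CTSL, which was lower in WCOC (log2FC -0.86).

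CTSS (cathepsin S), the protease that makes the last cuts in CD74, fell in both. It measured 66.6, 78.4, 222, 93.3 and 283 CPM in C, against 52.4, 49.0, 38.8, 42.6 and 33.7 CPM in DOP and 39.4, 61.7, 36.7, 45.3 and 52.2 CPM in WCOC. Every control pig lay above every pig of the olive groups, though C 3 and C 5 were again far above the rest. The log2FC was -1.78 ± 0.35 in DOP (edgeR, adjusted p = 0.0367) and -1.66 ± 0.35 in WCOC (edgeR, adjusted p = 0.0103). Without C 3 and C 5 it was -0.88 in DOP (edgeR, adjusted p = 0.217) and -0.76 in WCOC (edgeR, adjusted p = 0.0478). In DOP the call was lost with any one of C 3, C 5 or DOP 2 to 5 left out (adjusted p up to 0.107 by edgeR), with only the diets compared in the fit (0.0969), without DOP 2, 4 and 5 together (0.567) and with limma-voom (0.0658), in WCOC with no single library left out. Within the flow cell of the WCOC libraries the log2FC was -1.30 (edgeR, adjusted p = 0.0510). With the mean of each diet removed, the r of CTSS with the summed macrophage markers was 0.832 (rho = 0.864, and 0.769 without the 2 farthest libraries, n = 15), and the part of those markers in its difference was not tested. Per 1000 CPM of CD74, its substrate, CTSS stood at 48.3 to 309 CPM in C, 39.2 to 61.0 CPM in DOP and 40.0 to 50.4 CPM in WCOC, where the lowest control, C 1, lay inside the olive groups. This ratio was chosen after the values had been seen, so its test is not independent of them. Two-sided exact permutation of log2 CTSS/CD74 gave p = 0.0317 for DOP vs. C and p = 0.0159 for WCOC vs. C (adjusted over 6 such tests, 0.0635 each).

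CTSB, CTSH and IFI30 fell in WCOC. CTSB (cathepsin B, an endosomal protease) was at 1062 ± 485 CPM in C and 557 ± 108 CPM in WCOC, a log2FC of -0.93 (edgeR, adjusted p = 0.0324). CTSH (cathepsin H, an aminopeptidase) went from 266 ± 84.5 to 128 ± 49.6 CPM, a log2FC of -1.05 (edgeR, adjusted p = 0.0196). IFI30, the thiol reductase that opens disulphide bonds of antigens, went from 50.8 ± 26.8 to 19.1 ± 7.48 CPM, a log2FC of -1.41 (edgeR, adjusted p = 0.0188). CTSB did not pass without any one of C 3, C 5 or WCOC 1, 3, 4 and 5, and CTSH and IFI30 not without C 3 or WCOC 1, with adjusted p up to 0.0857, 0.0595 and 0.0549 by edgeR. All 3 calls were lost without C 3 and C 5 (log2FC of -0.35, -0.70 and -0.71) and within the flow cell of the WCOC libraries (-0.72, -0.96 and -1.20). With the summed macrophage markers these genes had r of 0.786, 0.702 and 0.902 after the mean of each diet was removed. Without the 2 farthest libraries, C 5 and WCOC 2, these r were 0.657, 0.522 and 0.841. In WCOC limma-voom called CTSH and IFI30 but not CTSB (adjusted p = 0.0510). In DOP the 3 genes had log2FC of -1.09, -0.97 and -1.22, with adjusted p from 0.0567 to 0.0974 by edgeR. There DESeq2 called all 3 and CTSD, and limma-voom called 0 of the list. Without C 3 and C 5 the log2FC in DOP were -0.52, -0.62 and -0.52. CTSD (cathepsin D), the most abundant gene of the list, had 1147 ± 370 CPM in C, 614 ± 126 in DOP and 802 ± 139 in WCOC and was a DEG in neither comparison (edgeR, adjusted p = 0.0583 and 0.136).

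**Figure D4:**
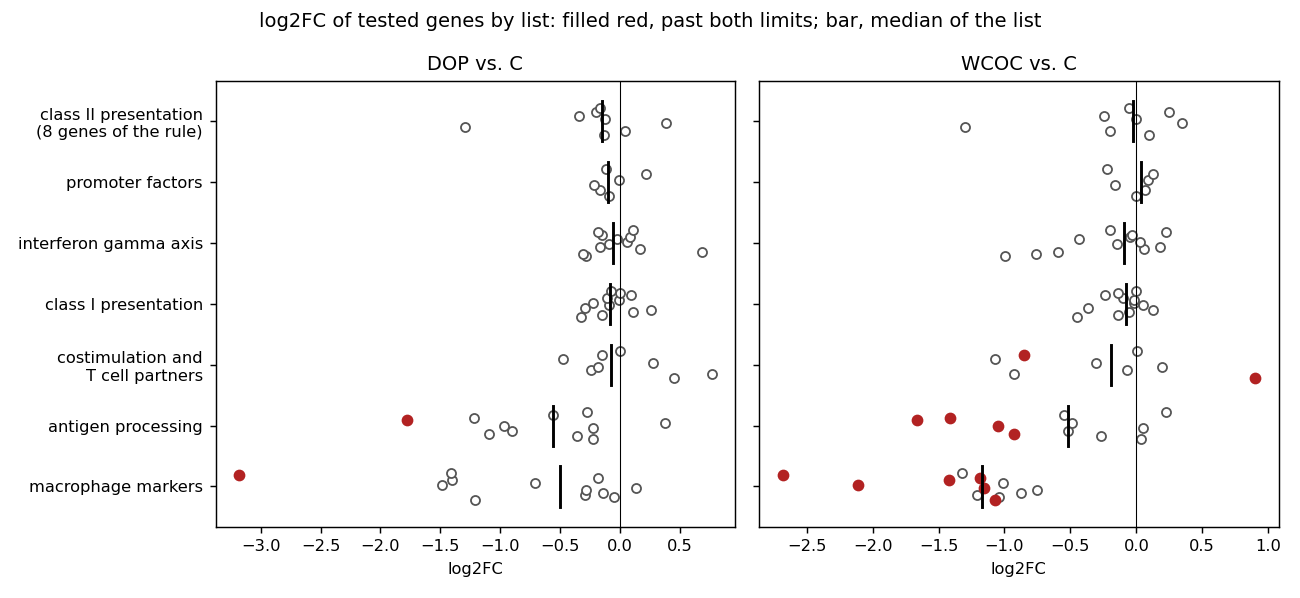
log2FC of every tested gene of 7 lists (circles) in DOP vs. C and WCOC vs. C, with DEGs filled in red and the median of each list as a vertical bar. The class II presentation genes scatter around -0.15 and -0.03 with CD86 apart at -1.30, and the DEGs lie among antigen processing, macrophage and costimulation genes.

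Among 13 further genes of costimulation and of the CD4 T cell, 8 could be tested, and 1 rose and 1 fell in WCOC vs. C, beside 2.33% of all tested genes called higher and 3.93% lower. CD274 (PD-L1), a ligand that restrains T cells, rose from 2.42 ± 0.781 CPM in C to 4.52 ± 0.898 CPM in WCOC, a log2FC of 0.90 (edgeR, adjusted p = 0.0210). PDCD1LG2 (PD-L2), the second ligand of the same receptor, fell from 3.97 ± 0.787 to 2.21 ± 0.404 CPM, a log2FC of -0.85 (edgeR, adjusted p = 0.0114), and was lower in WCOC than in DOP too (log2FC -0.70, edgeR, adjusted p = 0.0249, lost without DOP 4, DOP 5 or WCOC 4, where it was at most 0.0570, with flow cell as a covariate, log2FC -0.34, and without DOP 2, 4 and 5, log2FC -0.51). For PDCD1LG2 the highest WCOC pig (2.57 CPM) lay below the lowest control (3.04 CPM). Without C 3 and C 5, and within 1 flow cell, neither gene passed in WCOC vs. C, with log2FC of 0.76 to 0.78 for CD274 and -0.78 to -0.65 for PDCD1LG2. CD58, the most abundant, had 53.8 ± 6.01 CPM in C, 47.3 ± 5.46 in DOP and 61.7 ± 8.09 in WCOC and was a DEG in no comparison. In DOP vs. C edgeR, DESeq2 and limma-voom called 0 of the 8, and 0 had an unadjusted p under 0.05.

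CD4, the coreceptor that binds class II, was low in 1 DOP and 3 WCOC pigs. It was 6.58 to 9.91 CPM in all 5 control pigs. In DOP it was 19.7, 9.74, 0.617, 23.7 and 16.2 CPM, and in WCOC 8.28, 0.973, 10.1, 0.381 and 1.89 CPM. In the low pigs, DOP 3 and WCOC 2, 4 and 5, the summed T cell markers were 6.24, 9.62, 5.02 and 23.2 CPM, against 7.23 to 20.4 CPM in the controls. The log2FC of CD4 was 0.76 ± 0.78 in DOP and -0.93 ± 0.79 in WCOC (edgeR, adjusted p = 0.663 and 0.477).

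Genes upstream of class II gave no DEG against C. The list of factors that bind the X and Y boxes has 7 genes, of which 6 could be tested (RFX5, RFXANK, NFYA, NFYB, NFYC and CREB1). edgeR, DESeq2 and limma-voom called 0 of them in every comparison, with 1 at an unadjusted p under 0.05 (NFYB in DOP vs. C) and log2FC between -0.23 and 0.24. NFYC and CREB1 were the most abundant, with log2FC of -0.01 and -0.09 in DOP and 0.09 and -0.00 in WCOC. Of the 12 tested genes of the interferon gamma axis, the pathway that induces CIITA, 0 were DEGs against C by the same 3 tools, with 2 in DOP and 3 in WCOC at an unadjusted p under 0.05, and IFNG itself had at most 0.151 CPM in any library. GBP1, a target of interferon gamma, was at 63.3 ± 25.5 CPM in C, 102 ± 31.5 in DOP and 41.9 ± 6.63 in WCOC and was lower in WCOC than in DOP by a log2FC of -1.28 (edgeR, adjusted p = 0.00981), a call that was lost with flow cell as a covariate and without DOP 2, 4 and 5. JAK1, a kinase of the interferon receptor and the most abundant of the axis, had a log2FC of 0.08 in DOP and -0.05 in WCOC.

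The other class II chains that could be matched, SLA-DOA and SLA-DOB, form a pair that restrains DM. SLA-DOA had 7.73 ± 3.81 CPM in C, 7.61 ± 1.64 in DOP and 10.7 ± 2.30 in WCOC, and SLA-DOB 0.794, 0.789 and 1.13 CPM. Their log2FC in WCOC vs. C, 0.47 and 0.52, did not pass (edgeR, adjusted p = 0.295 and 0.462), with intervals of -0.12 to 1.06 and -0.39 to 1.43. In class I presentation, the route for peptides from inside the cell, 12 of 20 genes could be tested and edgeR, DESeq2 and limma-voom called 0 in every comparison, with 2, 3 and 1 at an unadjusted p under 0.05. The heavy chains of that list (SLA-1, SLA-2, SLA-3, SLA-6, SLA-7 and SLA-8) and the light chain B2M could not be matched, and TAP1 had no counts. The chains of the class I molecule itself were therefore not measured. CALR and CANX, chaperones of class I and the most abundant of them, had log2FC of -0.45 and -0.14 in WCOC vs. C, where CALR had an adjusted p of 0.0225 by edgeR but fell short of the limit on size.

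Macrophage markers followed CD86 from pig to pig, and several fell in WCOC. Of 12 markers, 1 fell in DOP (MSR1) and 6 fell in WCOC (CD68, CD163, AIF1, MRC1, MSR1 and ITGAM), with 0 higher in either, beside 0.55% and 3.93% of all tested genes called lower, and the median log2FC was -0.50 and -1.17. CD163 was also lower in WCOC than in DOP (log2FC -1.30, edgeR, adjusted p = 0.0229, lost without DOP 2 or WCOC 1, 3 or 4, where it was at most 0.0567). CSF1R, the most abundant marker, had 151 ± 66.7 CPM in C, 92.3 ± 30.3 CPM in DOP and 74.7 ± 30.8 CPM in WCOC. The summed level of the 12 markers was 298 to 886 CPM in C, 203 to 505 in DOP and 149 to 386 in WCOC. edgeR called 0 of the 12 without C 3 and C 5, with a median log2FC of 0.00 in DOP and -0.63 in WCOC, and 1 within the flow cell of the WCOC libraries. With single libraries left out, CD68 passed every time in WCOC vs. C, MSR1 did not pass without WCOC 1, and the other 4 did not pass without C 3 or C 5, among others, with adjusted p up to 0.110. MSR1 in DOP was lost without C 3, 4 or 5 or DOP 2 to 5 (up to 0.113). With the mean of each diet removed, this sum went with CD86 (r = 0.868, rho = 0.829, and r = 0.867 without the 2 farthest libraries, n = 15). Its r was 0.763 with SLA-DMB, 0.591 with SLA-DMA, 0.357 with SLA-DRA, 0.348 with CD74 and 0.212 with SLA-DQB1. Without the 2 farthest libraries, C 5 and WCOC 2, these r were 0.623, 0.335, 0.228, 0.260 and 0.014. The part of the macrophage markers in the difference of CD86 between diets was not tested.

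**Figure D5:**
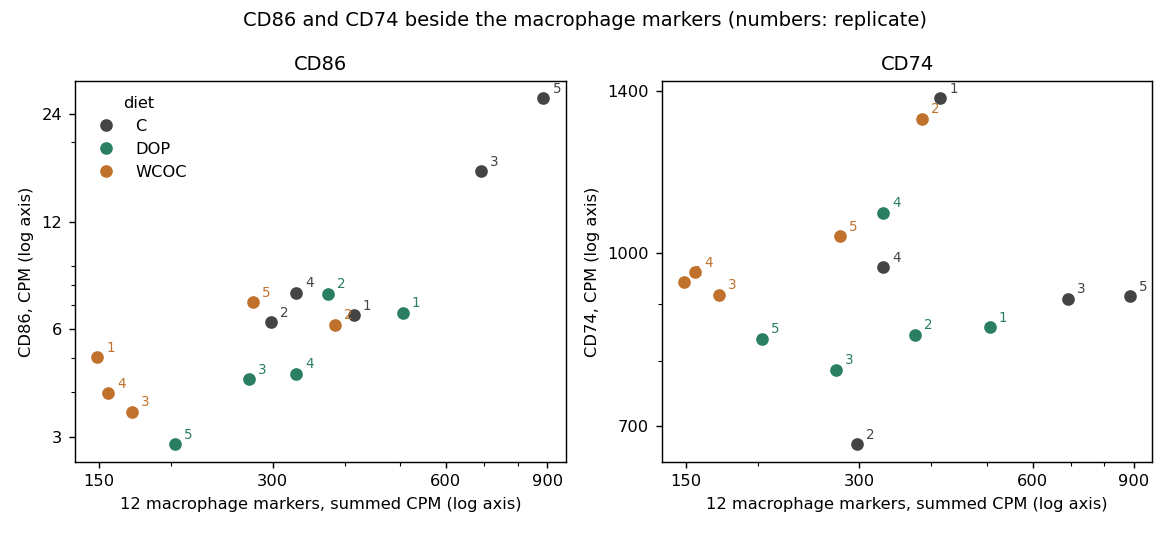
CD86 (left) and CD74 (right), in CPM, against the summed CPM of 12 macrophage markers, 1 point per library with its replicate number, coloured by diet, on log axes. C 3 and C 5, at 690 and 886 CPM of macrophage markers, are the highest in CD86, while their CD74 (910 and 916 CPM) is in the middle of the libraries.

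The lists of other cells that can carry class II were examined in the same way. With the mean of each diet removed, the summed B cell markers also went with CD86 (r = 0.700, rho = 0.732, and r = 0.731 without the 2 farthest libraries, n = 15). Their r with CD80 was 0.747 (rho = 0.686, and r = 0.589 without the 2 farthest libraries). For the macrophage sum it was 0.720 (rho = 0.771, and r = 0.804 without the 2 farthest libraries), so the order of the 2 lists depended on the measure. The r with CD86 was 0.413 for the summed T cell markers, -0.097 for dendritic cell and -0.167 for endothelial markers. Without the 2 farthest libraries these r were 0.231, 0.366 and -0.038, so the sign for the dendritic cell list depended on few pigs. FSCN1 and ZBTB46, at means of 84.7 and 36.3 CPM, made up most of the dendritic cell sum. The 8 B cell markers summed to 3.59 to 18.6 CPM in any library. CD79A had 0 counts in all 15, as had TAP1 of the class I list. CD79B, MS4A1 and PAX5 had counts in every library, up to 59, 96 and 126. Whether reads could be counted on CD79A at all was not tested, so its 0 is not read as absence of the transcript. CD22, the most abundant, was lower in WCOC (log2FC -1.28, edgeR, adjusted p = 0.0453), a call lost without C 3, 4 or 5 or WCOC 1 to 4 (up to 0.123). It was the 1 called of 4 tested B cell markers, beside 3.93% of all tested genes called lower. It was also the 1 of the 4 below 0, and their median log2FC in WCOC vs. C was 0.76. BLK, at an unadjusted p under 0.05 by edgeR, had a higher mean in WCOC (0.670 ± 0.848 CPM) than in C (0.178 ± 0.102 CPM). The 8 T cell markers, CD2 the highest, summed to 5.02 to 30.6 CPM, and edgeR, DESeq2 and limma-voom called 0, with 0 at an unadjusted p under 0.05. Of 7 tested dendritic cell markers, XCR1 was the 1 called in WCOC vs. C, beside 3.93% of all tested genes called lower. It fell in WCOC from 1.25 ± 0.828 to 0.350 ± 0.169 CPM (log2FC -1.83, edgeR, adjusted p = 0.0249), a call lost without C 3, C 5 or WCOC 1, 3 or 4 (up to 0.0695). There 5 of the 7 were below 0. ZBTB46, the only other at an unadjusted p under 0.05 by edgeR, had a higher mean in WCOC (43.0 ± 15.9 CPM) than in C (29.6 ± 5.53 CPM). FSCN1, the most abundant, had 84.6 ± 32.9 CPM in C and 82.1 ± 27.7 in WCOC. The 6 endothelial markers summed to 909 to 1616 CPM, with PECAM1 the most abundant, and edgeR, DESeq2 and limma-voom called 0, with 3 in DOP and 4 in WCOC at an unadjusted p under 0.05. In WCOC, at a summed macrophage level of 228 ± 103 CPM against 524 ± 255 in C, the summed level of the 8 class II presentation genes was 1474 ± 196 CPM against 1403 ± 348. Most of that sum is CD74, at 1036 ± 165 CPM in WCOC and 970 ± 255 in C, while CD86 adds 5.16 and 12.7 CPM. In DOP the macrophage sum was 337 ± 114 CPM and that of the 8 genes 1274 ± 141 CPM.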

How the data were processed

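Backfat RNA of 15 pigs was read as 1 paired-end library each. The authors aligned untrimmed reads to Sscrofa11.1 with HISAT2 and counted them per gene with HTSeq, and deposited the raw counts of each library. HISAT2 was set for strand-specific reads. The strand setting of HTSeq and the versions of both are not given in the sources used here. Each deposited file ends with 5 summary lines, which took 23.4% to 32.8% of read pairs and were left out. CPM, log2 and percent values were computed here from the deposited counts.

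Groups and replicate numbers came from the titles and treatment labels, and flow cells from the run identifiers. Replicates are different pigs. Symbols came from a reference table that names 14864 of the 30477 genes. Counts were fitted in R 4.3.3 with edgeR 4.0.16 (filterByExpr, 14918 genes kept, TMM, quasi-likelihood, 1 mean per diet over 15 libraries, common dispersion 0.0814), two-sided, with p-values adjusted over all 14918 genes by Benjamini and Hochberg. DEGs had to pass 0.05 and a log2FC of 0.58 in either direction. log2 CPM used a prior count of 1. Intervals are 95% intervals of the fit. Levels per length used RefSeq exons. On simulated data with 200 changed genes, 140 were called in WCOC vs. C, with 6 unchanged genes.

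Alternatives were DESeq2 1.42.0, its size factors, limma-voom (limma 3.58.1), no filter, a minimum of 10 counts per library, fits of only the diets compared, a replicate block, a flow cell term, 1 flow cell alone, no limit on the log2FC, and each library left out. Leaving out C 3 and C 5, or DOP 2, 4 and 5, was added after the data were seen. Promoter windows and figures used Python 3.11.15. The genes, lists and tests were chosen with earlier results of these data known. Genes named were all members, the DEGs and the 2 most abundant genes of each pathway list, the most abundant gene of each cell marker list, and 5 genes most alike to the members. DEGs of the macrophage and dendritic cell lists were named after their values were seen, and DEGs of the adipocyte, muscle and epidermis lists are not described. Of the interferon list 1 gene that this rule names is not reported here.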

Additional observations from a re-analysis of the deposited data

Results flagged for a closer look

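CD74 in the DOP group had 1 library far from the others. DOP 4 was read at 1088 CPM and the nearest of the other 4 at 858 CPM, a gap of 0.761 of the whole range of the group against a limit of 0.71. Of 24 groups of 5 libraries looked at (8 genes in 3 diets), this was the 1 that passed the limit, and chance alone passes it in about 1 of 20 groups. Without DOP 4 none of the 8 genes became a DEG in either comparison with DOP.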

How the results depend on the processing

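Among the 8 genes, leaving out libraries or changing the method left most calls as they were, and CD86 was the 1 gene that was called anywhere. In DOP vs. C the number of the 8 genes called was 1 with flow cell as a covariate and 1 with DESeq2. In WCOC vs. C it was 1 with at least 10 counts in every library, 1 with DESeq2, and 0 to 1 with single libraries left out. Over all genes the 114 DEGs of DOP vs. C became 2 when only the diets compared were fitted, 0 with the replicate block, 0 without C 3 and C 5, 0 without DOP 2, 4 and 5, 19 with limma-voom and 496 with DESeq2, and ranged from 0 to 200 with single libraries left out (0 without C 3, C 5, DOP 2 or DOP 4). The 933 DEGs of WCOC vs. C became 1493 with no limit on the log2FC, 473 with the replicate block, 486 within 1 flow cell and 289 without C 3 and C 5, and ranged from 468 to 1163. The 1158 DEGs of WCOC vs. DOP became 1842, 561 with the replicate block, 1 with flow cell as a covariate and 80 without DOP 2, 4 and 5, and ranged from 639 to 1291. The cause of these shifts was not tested. Some log2FC near 0 changed sign. For CD74 the range was -0.24 to 0.020 in DOP vs. C and -0.015 to 0.25 in WCOC vs. C with single libraries left out. For CD80 in DOP they were -0.67 with flow cell as a covariate and -0.031 with limma-voom, and -0.21 to 0.29 with libraries left out. For CD80 in WCOC they were 0.050 with the covariate, 0.042 within 1 flow cell, 0.19 without C 3 and C 5, and -0.42 to 0.050. For SLA-DMA in WCOC they were 0.0024 with no filter, 0.0091 with the replicate block, 0.078 with the covariate, 0.069 within 1 flow cell, 0.039 without C 3 and C 5, 0.016 with limma-voom, and -0.074 to 0.077, and for SLA-DRA in WCOC 0.0078 with the covariate and -0.14 to 0.095. In WCOC vs. DOP, the covariate gave 0.72 for CD80, 1.51 for CD86 and 0.19 for CIITA, CD86 was at 0.0037 with no filter, 0.042 with limma-voom and -0.16 to 0.17, and CIITA at 0.0088 without DOP 2, 4 and 5 and -0.11 to 0.046. Replicate numbers of different diets share only a number. Pairs of libraries with the same number had r of -0.495 to 0.345 between their deviations from the diet means (median -0.0987, 15 pairs), and the block changed the call of none of the 8 genes (CD86 -1.15 in DOP and -1.23 in WCOC). Of the list genes the block ended the calls of CTSS and MSR1 in DOP, of CTSB, CTSH, IFI30, CD22 and the 6 macrophage markers in WCOC vs. C, and of PDCD1LG2 in WCOC vs. DOP. All DOP libraries share a flow cell with 1 control, so the covariate rests on that control, C 5. CD80, at 48 to 178 counts, and CD86, at 82 to 800, carry the widest intervals.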

Other observations

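The balance of the 2 costimulatory ligands was looked at after their values had been seen and was given no test. CD86 stood at 1787, 3062, 4333, 3000 and 4494 CPM per 1000 CPM of CD80 in C. The DOP pigs gave 1395, 1250, 1356, 1600 and 1673, all below the lowest control, and the WCOC pigs 2354, 2292, 1367, 1190 and 1458, of which 2 lay inside the range of C. Per 1000 CPM of CD74, CD86 stood at 4.77 to 28.9 CPM in C, 3.41 to 8.93 in DOP and 3.84 to 6.89 in WCOC, and C 1, at 4.77, lay inside both olive groups. Two-sided exact permutation of log2 CD86/CD74, chosen after the values had been seen, gave p = 0.0873 for DOP vs. C and p = 0.0238 for WCOC vs. C (adjusted over 6 ratio tests, 0.131 and 0.0635).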
